A study of Homo sapiens with 6 samples.

Results

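Genes of DNA repair and of the damage checkpoint were compared between HCT116 human colorectal carcinoma cells with and without PTTG1. The 52 genes were taken as a list of named genes of known function, with no threshold on a measured value, and cover homologous recombination (12 genes), the Fanconi anemia pathway (8), mismatch repair (5), end joining (3), base excision and single-strand break repair (7), nucleotide excision repair (5), break sensing and checkpoint signaling (9) and the RecQ helicases (3). Of these, 49 had a listed probe (85 probes in all), and 43 passed the filter on dim probes, among the 10642 genes tested on the arrays. BRCA2, FANCA and FANCD2 were not analysed here, and BRIP1, FANCF, XRCC4, ERCC4, RAD50 and ATR did not pass the filter, which kept a probe with a detection p under 0.05 on at least 3 of the 6 arrays.

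The 6 samples were 3 of the parental genotype, PTTG1+/+, and 3 of the knockout genotype, PTTG1-/-, in which the gene had been disrupted by homologous recombination. PTTG1 is the securin that holds separase inactive until anaphase. RNA of each sample was read on 1 Illumina HumanHT-12 v4 array, which reports a brightness for each bead-bound probe. The knockout is a line of its own, so the loss of PTTG1 and any other difference between the 2 lines cannot be told apart. Whether each line's 3 samples were grown separately is not stated, so p-values cover the spread among these samples only, and that spread may be technical.

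DNA breaks are detected by the MRE11-RAD50-NBN complex, which recruits the kinase ATM. Breaks are rejoined directly by end joining or copied from the sister chromatid by homologous recombination, which acts in S and G2 phase. Mismatch repair corrects replication errors, and the excision pathways remove damaged bases or bulky lesions from a single strand. HCT116 is known as a mismatch repair-deficient line with microsatellite instability.

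Total signal was 14796418 to 16708425 per array, and 35.65% to 37.33% of 47310 probes were detected. Arrays of a line correlated at 0.993 to 0.996 across the 10642 genes tested, and arrays of different lines at 0.986 to 0.988. PTTG1 probe ILMN_1753196 read 10.77, 10.76 and 10.84 on the log2 scale in PTTG1+/+ cells and was not above background on any PTTG1-/- array, which makes it at least 49.2-fold lower. Its other probe, ILMN_2042771, fell 1.87-fold and stayed detected on all arrays (11.31, 11.19 and 10.88 in PTTG1-/- cells). Of the epithelial markers, EPCAM, KRT8, KRT18, CDH1 and CLDN7 were detected in both lines and CLDN4 was not, and CLDN7 (-0.70, PTTG1-/- minus PTTG1+/+ on the log2 scale), CDH1 (-0.53) and EPCAM (-0.32) fell. Fibroblast, leukocyte and endothelial markers did not pass the filter, other than COL1A1, which was not called, and CD68, which rose by 0.56 (adjusted p = 0.00191). These differences were about as large as those of the repair genes or larger, and their part in the results was not tested.

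Among the 43 tested members, 12 differed between the lines at an adjusted p under 0.05 (limma with Benjamini-Hochberg adjustment over all 10642 genes). That is 27.9% of the members, where 17.4% of all genes tested were called. BRCA1, BARD1, RAD51AP1, FANCI, MSH6, EXO1, OGG1, NBN and MDC1 fell in PTTG1-/- cells (9 genes, 20.9%, where 7.79% of all genes fell). ERCC1, ERCC2 and ERCC5 rose (3 genes, 6.98%, where 9.58% of all genes rose). The share of members that fell was above the share over all genes and the share that rose was below it. No test was made of the list as a whole, and the list was chosen with earlier results of these data known.

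The differences were small. The median size of the called members was 0.39 on the log2 scale, beside 0.42 for all called genes, and the largest at the probes used for the genes was 0.56. The log2 difference, given throughout as PTTG1-/- minus PTTG1+/+, was below 0 in 32 members and above 0 in 11, with a median of -0.10 against 0.001 over all genes. The 3 arrays of one line lay wholly above or below the other 3 in 18 members, and 36.1% of all genes tested showed such separation. For any single gene the smallest 2-sided p an exact permutation test of 3 against 3 arrays allows is 0.1, which all 12 called members reached.

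**Figure D1:**
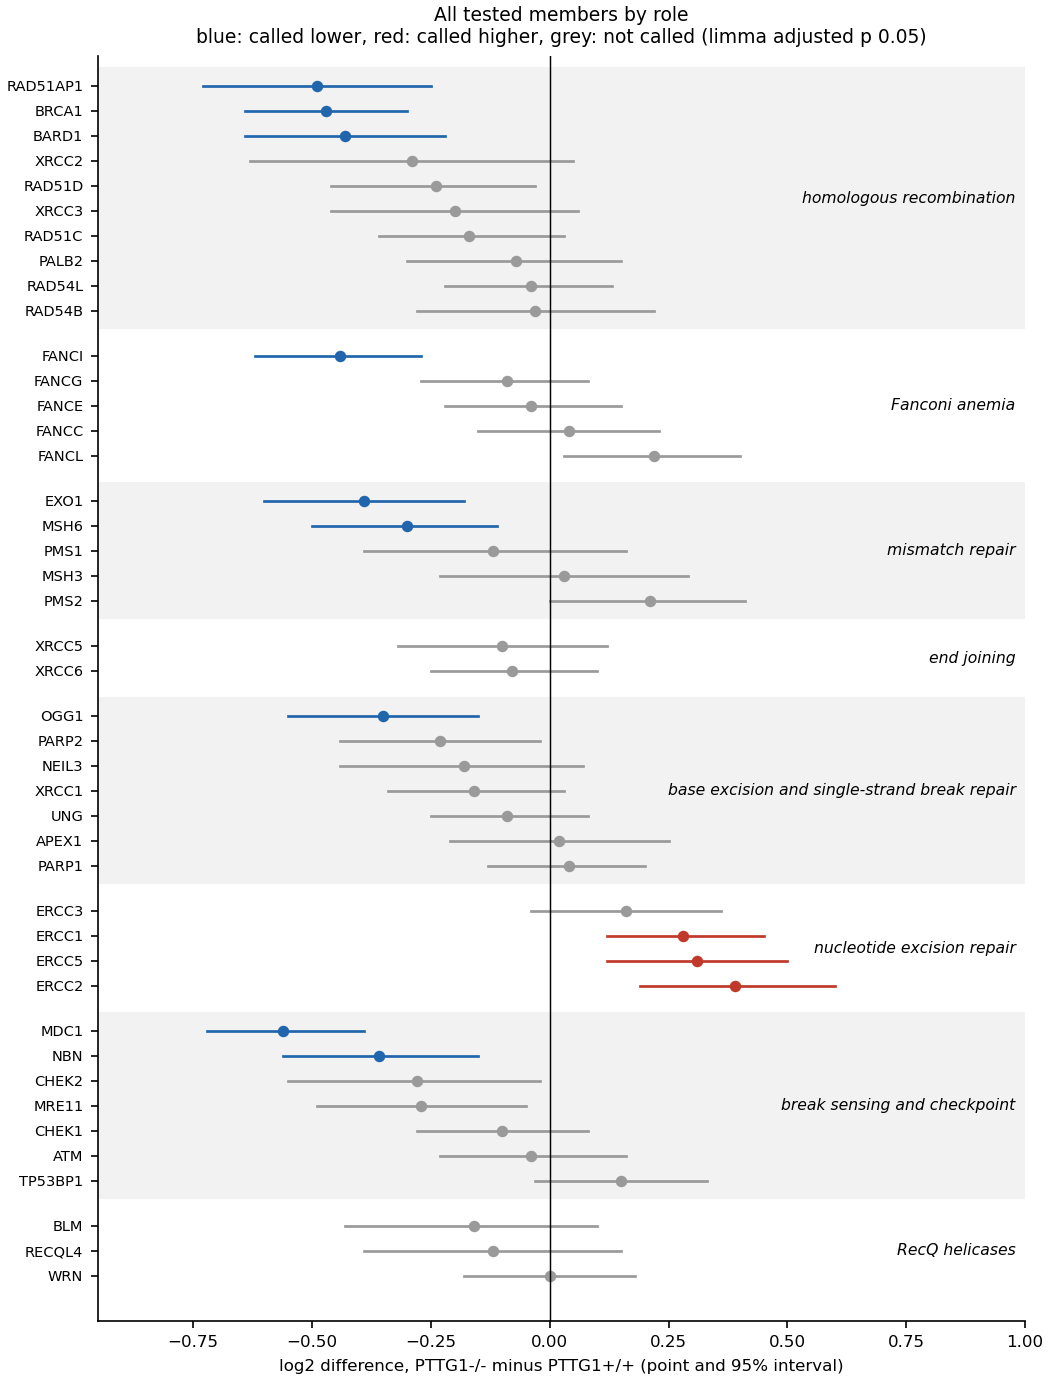
Log2 difference of each of the 43 tested members (x axis, PTTG1-/- minus PTTG1+/+; point with 95% interval from limma) by role. All 10 homologous recombination genes lie below 0, with 3 called lower, and all 4 nucleotide excision repair genes lie above 0, with 3 called higher.

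Promoter windows were searched because several repair genes are transcribed mainly in S and G2 phase, where E2F and CHR elements are well-known promoter motifs. Shown are the windows of 4 called members that held a match. Those of the called members BRCA1, BARD1, EXO1, ERCC1 and ERCC5 held no match to any of the motifs searched. The window of OGG1, also called, held 2 CCAAT matches and is not shown. For the called members FANCI and NBN no window was found. Windows came from RefSeq on GRCh38.p14, run from 250 bases before to 50 bases after the annotated start, and are written 5′ to 3′ on the strand of the gene. They lie at chr12:4538640-4538939 on the plus strand (RAD51AP1), chr2:47782895-47783194 on the plus strand (MSH6), chr6:30717232-30717531 on the minus strand (MDC1) and chr19:45370524-45370823 on the minus strand (ERCC2). Capitals mark matches to the E2F motif (TTTCCCGC or TTTGGCGC), the CHR motif (TTTGAA or TTCGAA) or CCAAT, on either strand.
RAD51AP1: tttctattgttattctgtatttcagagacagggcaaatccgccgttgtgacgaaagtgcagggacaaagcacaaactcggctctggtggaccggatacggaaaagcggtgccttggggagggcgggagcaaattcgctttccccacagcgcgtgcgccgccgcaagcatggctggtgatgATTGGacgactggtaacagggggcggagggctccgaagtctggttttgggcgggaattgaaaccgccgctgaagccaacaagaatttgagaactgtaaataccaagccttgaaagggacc
MSH6: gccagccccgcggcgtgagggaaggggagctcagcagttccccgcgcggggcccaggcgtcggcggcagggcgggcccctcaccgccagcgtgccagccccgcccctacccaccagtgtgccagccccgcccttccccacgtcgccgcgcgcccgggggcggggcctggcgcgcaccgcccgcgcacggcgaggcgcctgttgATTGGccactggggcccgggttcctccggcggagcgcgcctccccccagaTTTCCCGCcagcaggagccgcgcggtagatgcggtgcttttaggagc
MDC1: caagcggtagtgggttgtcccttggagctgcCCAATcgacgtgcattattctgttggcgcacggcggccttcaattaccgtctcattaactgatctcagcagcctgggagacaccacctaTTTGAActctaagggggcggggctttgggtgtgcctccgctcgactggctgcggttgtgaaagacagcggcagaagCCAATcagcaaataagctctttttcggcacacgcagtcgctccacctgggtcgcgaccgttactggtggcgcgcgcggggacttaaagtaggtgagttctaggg
ERCC2: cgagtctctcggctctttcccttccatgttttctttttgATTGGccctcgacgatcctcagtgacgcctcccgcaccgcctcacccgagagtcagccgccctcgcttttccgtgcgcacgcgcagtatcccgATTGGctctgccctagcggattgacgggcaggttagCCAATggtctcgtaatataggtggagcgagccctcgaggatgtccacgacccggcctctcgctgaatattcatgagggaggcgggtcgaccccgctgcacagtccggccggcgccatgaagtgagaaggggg
In MSH6 the capitals hold an E2F match and a CCAAT match, in RAD51AP1 a CCAAT match, in MDC1 a CHR match and 2 CCAAT matches, and in ERCC2 3 CCAAT matches. Windows were found for 46 of the 52 members. The E2F motif was present in 6 of these 46 (13%) and in 2.31% of all 27305 windows. Among members with a window, it was in 1 of 7 that fell (MSH6), in 0 of 3 that rose and in 4 of 27 tested but not called. CHR was in 15.2% of members against 16.6% of all windows, and CCAAT in 54.3% against 35.7%. CHR was in 14.3% of members that fell, 0% of those that rose and 18.5% of those not called. For CCAAT these shares were 57.1%, 33.3% and 59.3%. A match describes the letters of the window and no binding was measured. Each member with a window had a single one, so promoters at other starts of a gene were not searched. Whether that start is the one most used in these cells was not tested. The absence of a match in the windows of BRCA1 (chr17:43170278-43170577) and ERCC1 (chr19:45451498-45451797) therefore covers those starts only.

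Of the 10 homologous recombination genes tested, 3 fell and 0 rose in PTTG1-/- cells, where 7.79% of all genes fell. The other 7 were not called, and all 10 differences were below 0, with a median of -0.22. At an unadjusted limma p under 0.05, 4 were lower and 0 higher. The share of all genes at an unadjusted p was not counted, here or for the roles below, so these counts have no background beside them. They were 1 lower and 1 higher for Fanconi anemia and 2 and 0 for mismatch repair. For base excision and single-strand break repair they were 2 and 0, and for break sensing and checkpoint genes 4 and 0. The genes that fell encode BRCA1, its partner BARD1, with which it forms a ubiquitin ligase that acts in end resection and strand exchange, and RAD51AP1, which assists the recombinase in strand invasion.

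BRCA1 (probe ILMN_1738027) read 7.15, 7.08 and 7.06 in log2 intensity on the arrays of PTTG1+/+ cells, whereas PTTG1-/- cells gave 6.57, 6.61 and 6.69. Every PTTG1-/- array lay below every PTTG1+/+ array, and the arrays within a line were close. It fell by 0.47 on the log2 scale (SE 0.07, 1.38-fold, adjusted p = 0.00356). The other BRCA1 probe, ILMN_2311089, read 6.78, 6.78 and 6.90 against 6.41, 5.96 and 6.14, and fell by 0.65 (SE 0.12, 1.57-fold, adjusted p = 0.00778 with probes tested one by one). Its PTTG1-/- arrays were further apart than at the first probe.

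BARD1 read 6.69, 6.67 and 6.75 in PTTG1+/+ cells and 6.45, 6.21 and 6.16 in PTTG1-/- cells, without overlap and with PTTG1-/- replicate 1 nearest to the control arrays. It fell by 0.43 (SE 0.09, 1.35-fold, adjusted p = 0.0135). RAD51AP1 read 9.08, 8.96 and 9.0 against 8.39, 8.43 and 8.76, with PTTG1-/- replicate 3 nearest to the control arrays. It fell by 0.49 (SE 0.11, 1.40-fold, adjusted p = 0.0152). The BRCA1 call was kept when any 1 array was left out. BARD1 had an adjusted p of 0.0529 without PTTG1-/- replicate 2, and RAD51AP1 had 0.0599 without PTTG1+/+ replicate 1 and 0.0587 without PTTG1-/- replicate 2.

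The other 7 recombination genes did not pass the threshold. RAD51D, a paralog of the recombinase, read 5.58, 5.56 and 5.43 against 5.32, 5.11 and 5.41, close to background, a difference of -0.24 (95% interval -0.46 to -0.03, adjusted p = 0.112). Its other kept probe differed by -0.30 and was called (adjusted p = 0.0498), and the mean of both probes gave 0.0306. The paralogs XRCC2 (-0.29, interval -0.63 to 0.05), XRCC3 (-0.20, interval -0.46 to 0.06) and RAD51C (-0.17, interval -0.36 to 0.03) had intervals that reached 0. XRCC2 had the widest spread, with PTTG1-/- arrays at 7.68, 7.46 and 7.04, and its other kept probe differed by -0.05. PALB2, which bridges BRCA1 and BRCA2, differed by -0.07 (interval -0.30 to 0.15), and the translocases RAD54L and RAD54B by -0.04 (interval -0.22 to 0.13) and -0.03 (interval -0.28 to 0.22).

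Of the 5 Fanconi anemia genes tested, which act on interstrand crosslinks, 1 fell, where 7.79% of all genes fell. Their median difference was -0.04. FANCI, a subunit of the complex that is monoubiquitinated at a crosslink, read 8.77, 8.88 and 8.70 against 8.34, 8.35 and 8.34. The 3 PTTG1-/- arrays were nearly identical and all lay below the PTTG1+/+ arrays. FANCI fell by 0.44 (SE 0.08, 1.36-fold, adjusted p = 0.00569), and the call was kept without any 1 array. FANCL, the ubiquitin ligase subunit of the core complex, leaned the other way, with 7.45, 7.27 and 7.29 against 7.49, 7.60 and 7.59 (0.22, interval 0.03 to 0.40, adjusted p = 0.0987). The core complex genes FANCC (0.04, interval -0.15 to 0.23), FANCE (-0.04, interval -0.22 to 0.15) and FANCG (-0.09, interval -0.27 to 0.08) were close to 0.

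**Figure D2:**
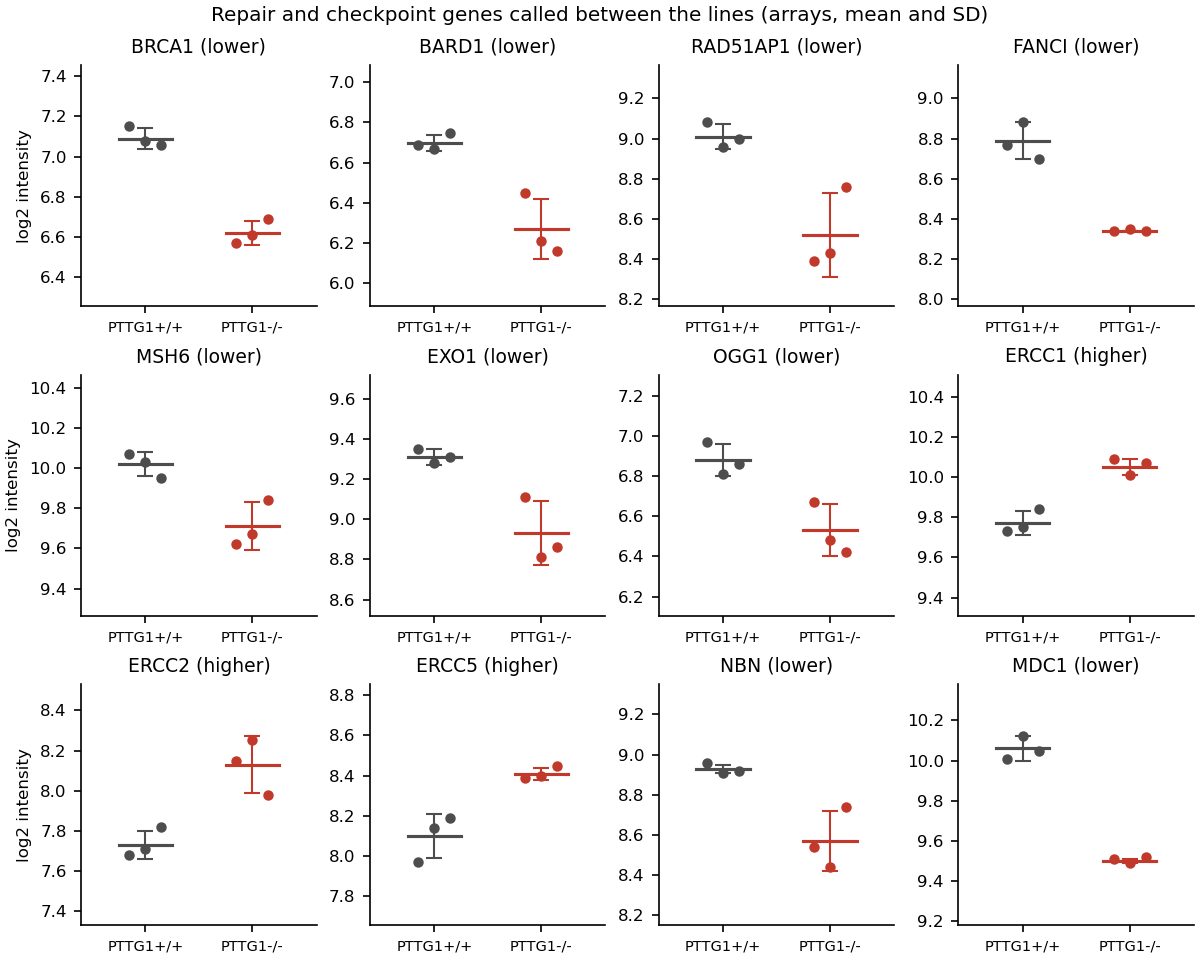
Log2 intensity of the 12 called members on each array (points; line and bar, mean and SD of 3 arrays; every panel spans 1.2 log2 units). The 3 arrays of PTTG1-/- and PTTG1+/+ do not overlap in any panel, and MDC1 (9.51, 9.49 and 9.52) and FANCI (8.34, 8.35 and 8.34) vary least within PTTG1-/- cells.

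All 5 mismatch repair members were detected in both lines. MSH6, a subunit of the complex that recognises base mismatches, and the exonuclease EXO1 fell, and MSH3, PMS1 and PMS2 did not pass the threshold. Over all genes 7.79% fell. The median difference of the 5 members was -0.12. MSH6 read 10.07, 10.03 and 9.95 in PTTG1+/+ cells and 9.62, 9.67 and 9.84 in PTTG1-/- cells, so that PTTG1-/- replicate 3 came close to the lowest control array. It fell by 0.30 (SE 0.09, 1.24-fold, adjusted p = 0.0399). This was the called member nearest to the threshold. Its adjusted p was between 0.065 and 0.124 without any one of PTTG1+/+ replicates 1, 2 and 3 and PTTG1-/- replicates 1 and 2, and it was 0.0569 with probes tested one by one.

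EXO1 read 9.35, 9.28 and 9.31 against 9.11, 8.81 and 8.86 at probe ILMN_1673721. The PTTG1+/+ arrays were tight, and PTTG1-/- replicate 1 lay nearest to them. EXO1 fell by 0.39 (SE 0.09, 1.31-fold, adjusted p = 0.0219). At its other kept probe, ILMN_2351916, the arrays overlapped (7.12, 7.13 and 6.97 against 6.95, 7.03 and 7.04), with a difference of -0.07 (interval -0.26 to 0.12), so the fall was seen at 1 of 2 probes. The adjusted p was 0.0758, 0.0603 and 0.0599 without PTTG1+/+ replicates 1, 2 and 3, and 0.0794 without PTTG1-/- replicate 2.

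MSH3, a subunit of the complex for insertion-deletion loops, read 13.17, 13.38 and 13.41 against 13.51, 13.40 and 13.12 at probe ILMN_2077130. The lines overlapped fully, and the difference was 0.03 (interval -0.23 to 0.29, adjusted p = 0.905). That interval overlapped the interval of MSH6 (-0.50 to -0.11), and the 2 genes were not tested against each other. The other MSH3 probe, ILMN_1719471, gave 5.65, 5.47 and 5.31 against 5.44, 5.32 and 5.68 with a difference of 0.00 (interval -0.27 to 0.28). Brightness of different probes is not comparable, so neither value gives the amount of MSH3 transcript relative to other genes. PMS1 read 5.96, 5.62 and 5.62 against 5.48, 5.55 and 5.82 (-0.12, interval -0.39 to 0.16). PMS2, a subunit of the endonuclease that nicks the mismatched strand, read 7.08, 7.14 and 6.92 against 7.34, 7.28 and 7.13 (0.21, interval -0.00 to 0.41, adjusted p = 0.159). PMS2 has near-identical pseudogene copies, and how far its probe separates them was not tested.

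End joining genes showed no called difference among the 2 tested, in limma (0 also at an unadjusted p under 0.05) or in the methods' t-test. Over all genes 17.4% were called by limma. XRCC5 and XRCC6 encode the Ku heterodimer that caps broken ends. XRCC5 read 9.37, 9.18 and 9.18 against 9.03, 9.10 and 9.31 (-0.10, interval -0.32 to 0.12). XRCC6 read 12.33, 12.39 and 12.43 against 12.41, 12.28 and 12.24 (-0.08, interval -0.25 to 0.10). The lines overlapped at both genes. The other kept XRCC6 probe, ILMN_1743097, read 10.58, 10.60 and 10.19 against 10.26, 10.0 and 10.25, with a wider interval (-0.28, interval -0.57 to 0.01) and no call.

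Base excision and single-strand break repair had 1 called member of 7 tested, where 17.4% of all genes were called. The median difference was -0.16. OGG1, the glycosylase for oxidised guanine, read 6.97, 6.81 and 6.86 against 6.67, 6.48 and 6.42, without overlap. It fell by 0.35 (SE 0.09, 1.28-fold, adjusted p = 0.0274). Its other probe differed by a like amount (-0.30, interval -0.56 to -0.04) and was not called. The OGG1 call was kept only without PTTG1-/- replicate 1, and the adjusted p was 0.0968, 0.058 and 0.0662 without PTTG1+/+ replicates 1, 2 and 3 and 0.0877 and 0.0536 without PTTG1-/- replicates 2 and 3. PARP2, a break-activated polymerase, read 9.12, 8.99 and 8.80 against 8.74, 8.69 and 8.80 (-0.23, adjusted p = 0.131), and its other probe differed by less than 0.01. The scaffold XRCC1 (-0.16, interval -0.34 to 0.03), the glycosylases NEIL3 (-0.18, interval -0.44 to 0.07) and UNG (-0.09, interval -0.25 to 0.08), the abasic-site nuclease APEX1 (0.02, interval -0.21 to 0.25) and PARP1 (0.04, interval -0.13 to 0.20) were not called.

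Nucleotide excision repair was the one role among the members in which genes rose. Of 4 tested, 3 rose and 0 fell, where 9.58% of all genes rose and 7.79% fell. The counts at an unadjusted p under 0.05 were also 3 and 0, and the median was 0.30. ERCC2 and ERCC3 encode the helicases of TFIIH, ERCC5 the nuclease that cuts 3′ of the lesion, and ERCC1 a subunit of the nuclease that cuts 5′ of it. ERCC2 read 7.68, 7.71 and 7.82 against 8.15, 8.25 and 7.98. PTTG1-/- replicate 3 was nearest to the control arrays, and the lines did not overlap. ERCC2 rose by 0.39 (SE 0.09, 1.31-fold, adjusted p = 0.0188).

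ERCC5 read 7.97, 8.14 and 8.19 against 8.39, 8.40 and 8.45, with tight PTTG1-/- arrays, and rose by 0.31 (SE 0.08, 1.24-fold, adjusted p = 0.0313). ERCC1 read 9.73, 9.75 and 9.84 against 10.09, 10.01 and 10.07 and rose by 0.28 (SE 0.07, 1.22-fold, adjusted p = 0.0303) at probe ILMN_2377496. Its other 3 kept probes differed by 0.13, 0.06 and 0.16, all above 0 and none called, and the mean of the 4 probes gave an adjusted p of 0.159. ERCC3 read 8.77, 8.87 and 8.69 against 8.82, 9.05 and 8.92 (0.16, interval -0.04 to 0.36). The 3 calls were sensitive to single arrays. None of them was made without PTTG1+/+ replicate 1, PTTG1+/+ replicate 2, PTTG1-/- replicate 1 or PTTG1-/- replicate 2, where the adjusted p was 0.0977, 0.113, 0.0859 and 0.0641 for ERCC1, 0.07, 0.0711, 0.0551 and 0.0699 for ERCC2, and 0.105, 0.0796, 0.0675 and 0.0791 for ERCC5. ERCC1 had 0.0514 without PTTG1+/+ replicate 3 and ERCC5 had 0.0526 without PTTG1-/- replicate 3.

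**Figure D3:**
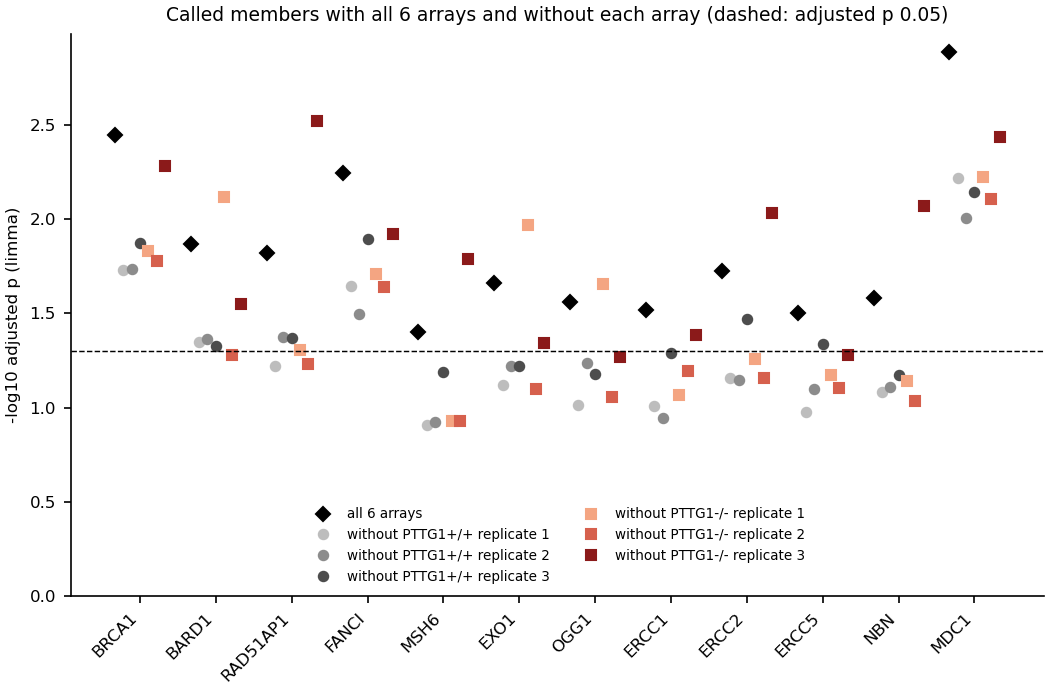
Adjusted p of the 12 called members on a -log10 scale (y axis) with all 6 arrays and without each array in turn; the dashed line marks an adjusted p of 0.05. BRCA1, FANCI and MDC1 stay above the line throughout, whereas MSH6, above the line with all arrays, stays there in only 1 of the fits without an array (PTTG1-/- replicate 3 left out).

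Among break sensing and checkpoint genes 2 of 7 fell, where 7.79% of all genes fell. The median difference was -0.27, the lowest of the 8 roles. MDC1, the scaffold that binds phosphorylated histone H2AX beside a break, had the largest difference among the members at the probes used for the genes, although the second BRCA1 probe fell further. It read 10.01, 10.12 and 10.05 in PTTG1+/+ cells and 9.51, 9.49 and 9.52 in PTTG1-/- cells. The 2 lines were far apart relative to the spread within either. MDC1 fell by 0.56 (SE 0.07, 1.47-fold, adjusted p = 0.0013) and stayed called without any 1 array.

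NBN, the subunit of the sensor complex that contacts ATM, read 8.96, 8.91 and 8.92 against 8.54, 8.44 and 8.74 and fell by 0.36 (SE 0.09, 1.28-fold, adjusted p = 0.0262). Its other kept probe differed by -0.14 (interval -0.37 to 0.10) and was not called. The NBN call was kept only without PTTG1-/- replicate 3, the array nearest to the control arrays. It had an adjusted p of 0.0828, 0.0778 and 0.0672 without PTTG1+/+ replicates 1, 2 and 3, and 0.0725 and 0.0918 without PTTG1-/- replicates 1 and 2.

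MRE11, the nuclease of the same complex, read 6.56, 6.49 and 6.43 against 6.29, 6.04 and 6.35. The lines did not overlap, but the difference of -0.27 (interval -0.49 to -0.05) had an adjusted p of 0.0887, and 0.0469 without PTTG1-/- replicate 3. Its other kept probe differed by -0.10 (interval -0.36 to 0.15). CHEK2, the effector kinase downstream of ATM, differed by -0.28 (interval -0.55 to -0.02, adjusted p = 0.13) at one probe and by -0.03 at another. PTTG1+/+ arrays of CHEK2 spread from 7.59 to 8.03, and the lowest overlapped the PTTG1-/- arrays. Without that array, PTTG1+/+ replicate 3, CHEK2 was called lower (-0.41, adjusted p = 0.0275). ATM itself (-0.04, interval -0.23 to 0.16, and -0.23, interval -0.51 to 0.04, at its other kept probe) and CHEK1, the kinase downstream of ATR (-0.10, interval -0.28 to 0.08), were not called. TP53BP1, which opposes end resection and favors end joining, read 9.02, 9.03 and 8.94 against 9.17, 9.22 and 9.05, without overlap and without a call (0.15, interval -0.03 to 0.33, adjusted p = 0.229).

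The RecQ helicases, which unwind recombination and replication intermediates, had no called member of 3 in limma, where 17.4% of all genes were called. There were 0 also at an unadjusted limma p under 0.05, and none in the methods' t-test. BLM read 8.14, 8.19 and 8.41 against 7.97, 7.95 and 8.32 (-0.16, interval -0.43 to 0.10). WRN differed by less than 0.01 (interval -0.18 to 0.18). RECQL4 read 8.83, 8.92 and 8.83 against 8.88, 8.89 and 8.45 (-0.12, interval -0.39 to 0.15), so that its lower mean in PTTG1-/- cells came from replicate 3 alone.

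Of the 61 kept probes of the members tested one by one, 3 were called higher and 10 lower (13 in all, 21.3%, where 12.8% of 17357 probes were called). The 10 lower probes included both BRCA1 probes and the second RAD51D probe, and not the MSH6 probe. Several kept probes were available for 15 members. Of the 5 called genes among these, BRCA1 was called at both probes, and EXO1, OGG1, NBN and ERCC1 at 1 probe each, with no probe of the opposite sign. Among uncalled genes RAD51C and APEX1 had probes on both sides of 0.

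**Figure D4:**
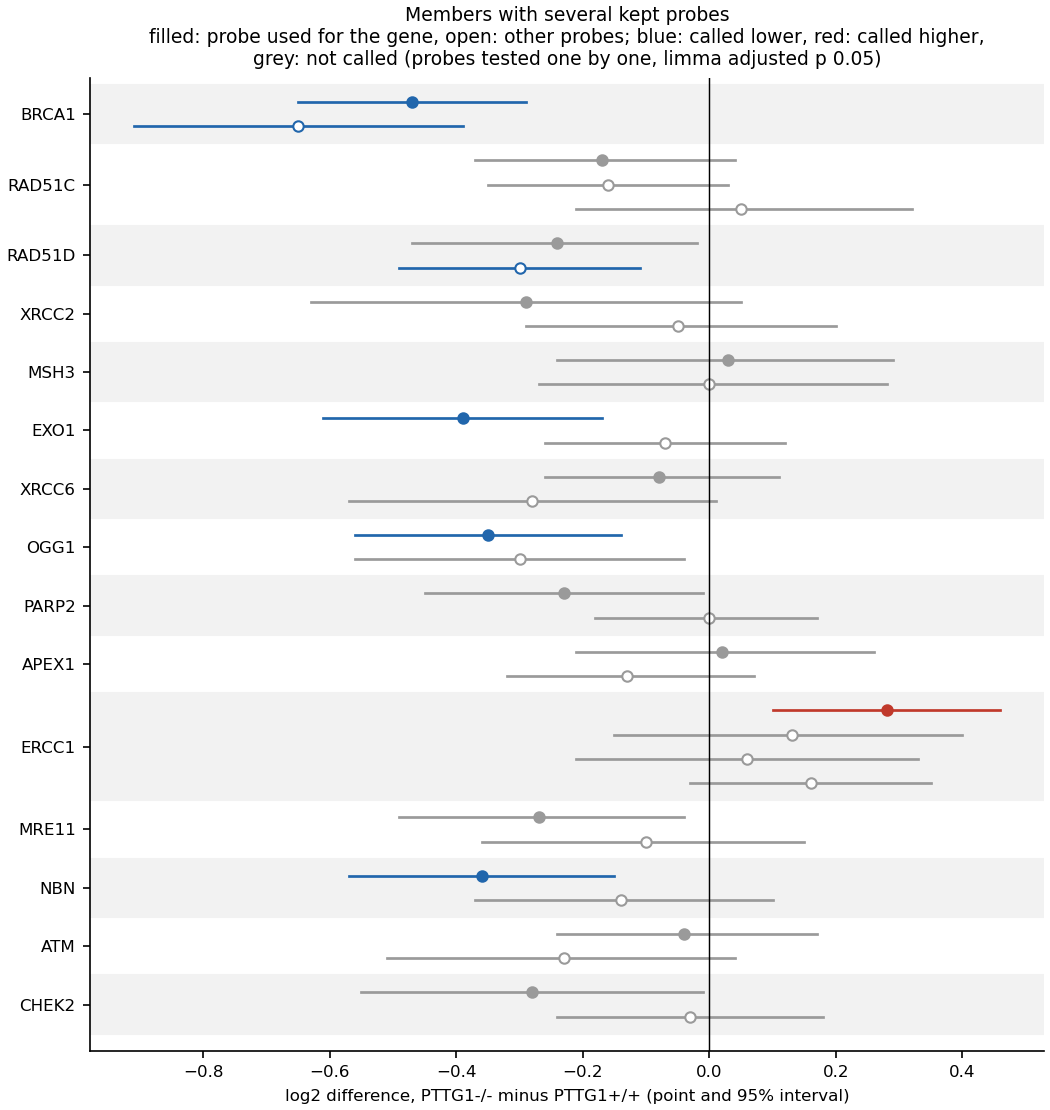
Log2 difference (x axis, PTTG1-/- minus PTTG1+/+; point with 95% interval) of each kept probe of the 15 members with several; filled points are the probes used for the gene. Both BRCA1 probes are called lower (-0.47 and -0.65), whereas EXO1 (-0.39 and -0.07) and ERCC1 (0.28, 0.13, 0.06 and 0.16) are called at 1 probe.

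A wider list of other repair genes was measured beside the members. Of 113 genes, 90 were tested, of which 7 rose (7.78%) and 10 fell (11.1%), with a median difference of -0.04. Over all genes 9.58% rose and 7.79% fell. In either direction 18.9% of the wider list was called, where 17.4% of all genes were. In homologous recombination 5 of 13 fell and 2 rose. The lowest was RMI1 (-0.67, SE 0.13, adjusted p = 0.00935), which forms with RMI2 (-0.38, SE 0.09, adjusted p = 0.0177) and BLM the complex that dissolves double Holliday junctions. SLX4, a nuclease scaffold, rose (0.33, SE 0.08, adjusted p = 0.026). In break sensing 2 of 18 fell, and H2AX, the histone that MDC1 reads, fell by 0.49 (SE 0.09, adjusted p = 0.00607). In the Fanconi pathway 1 of 9 fell and 1 rose. USP1, which removes ubiquitin from the FANCI complex, fell by 0.37 (SE 0.09, adjusted p = 0.0174), and FAN1 rose by 0.45 (SE 0.13, adjusted p = 0.0461).

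Excision repair in the wider list was mixed, and its counts stand beside 9.58% of all genes that rose and 7.79% that fell. Of 13 further nucleotide excision repair genes 1 rose and 1 fell, and the one that rose was XPC, which recognises the lesion (0.29, SE 0.07, adjusted p = 0.0243). At an unadjusted p under 0.05, 4 of these 13 were higher and 1 lower, and the members were not tested against them. Of 12 further base excision genes 2 rose, PARP3 (0.40, SE 0.08, adjusted p = 0.0112) and the ligase LIG3 (0.30, SE 0.08, adjusted p = 0.0342), and 0 fell. None of 6 further end joining genes was called in either direction by limma, though 2 were higher and 1 lower at an unadjusted p under 0.05, and none was called by the methods' t-test.

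Proliferation genes were measured on the same arrays because several repair genes are transcribed mainly in S and G2 phase. Of 20 listed, 19 were tested, and all 19 differences were below 0 (-0.40 to -0.03, median -0.17). MCM5 and MCM6, subunits of the replicative helicase, the licensing factor CDT1 (each -0.34) and RRM2, a ribonucleotide reductase subunit (-0.40), fell, and 0 rose. That is 21.1% of the 19 that fell, where 7.79% of all genes fell. The median of the homologous recombination members (-0.22) and that of the proliferation genes were thus on the same side of 0. So were the medians of every other role among the members (-0.27 to -0.04) except nucleotide excision repair (0.30). The part of proliferation in the falls of the repair members was not tested.

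**Figure D5:**
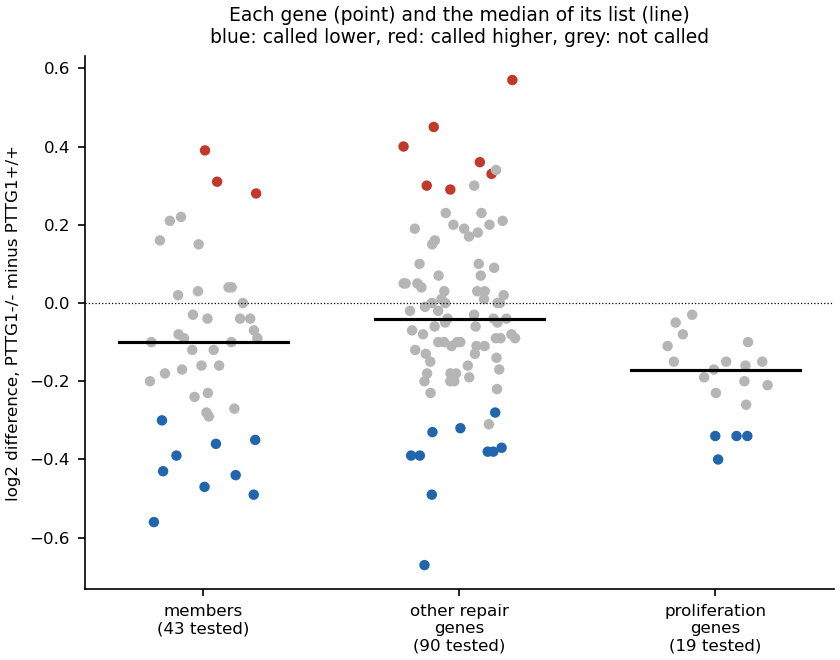
Log2 difference (y axis, PTTG1-/- minus PTTG1+/+) of each tested gene among the 43 members, 90 other repair genes and 19 proliferation genes, with the median of each list as a line (-0.10, -0.04 and -0.17). All 19 proliferation genes lie below 0, and the 2 repair lists hold genes called in both directions.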

How the data were processed

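RNA of 3 PTTG1+/+ and 3 PTTG1-/- HCT116 samples was hybridised to Illumina HumanHT-12 v4 arrays by the manufacturer's protocol, and the authors analysed them in Partek 6.5. The deposited table used here holds probe intensity before normalization, with a detection column given as a fraction that rises with intensity, so that 1 minus it served as the detection p. The authors also deposited processed log2 values of the same arrays, used as an alternative. Which software read the scanner and how the processed values were normalized is not given in the sources used here.

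Intensities were background-corrected (normexp, with an offset of 16), quantile-normalized and taken to log2. Probes with a detection p under 0.05 on at least 3 arrays were kept (17357 of 47310), and each gene took its brightest kept probe. Of all probes, 30107 were annotated to 1 gene, and 12 lines without a probe name were left out. Lines were compared with limma 3.58.1 in R 4.3.3, all 6 arrays, no covariate, after a test on simulated data. Intervals are 95% intervals of that fit. Exact permutation p-values were 2-sided. The number of arrays limits the precision. Members and gene lists were chosen with earlier results of these data known. Array values are given for called members, mismatch repair members and those near the threshold. Of the other repair genes, differences are given for up to 4 a direction with the smallest p, and for FAN1 beside USP1. Alternatives were other background corrections, scalings, filters, tests and thresholds, a replicate block and each array left out; the methods' t-test was the unpaired Student's test that the authors name in general.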

Additional observations from a re-analysis of the deposited data

How the results depend on the processing

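None of the 12 called members changed direction under the 17 alternatives run for each, and BRCA1, FANCI and MDC1 kept their calls in all of them; the other 9 lost theirs in 2 (BARD1) to 10 (MSH6). The counts of members called (3 higher and 9 lower) became 1 and 5 with median scaling, 1 and 4 with no normalization between arrays, 0 and 3 at an adjusted p of 0.01, and 1 and 3 when p-values of the methods' t-test were adjusted the same way. With a replicate block they were 1 and 8. The shares of all genes called also changed with the setting (9.58% higher and 7.79% lower in the main fit). They were 6.62% and 4.09% with median scaling and 6.23% and 3.58% with no normalization between arrays. At an adjusted p of 0.01 they were 4.01% and 2.96%, with the methods' t-test 4.91% and 3.88%, and with the block 7% and 5.65%. Same-numbered arrays did not deviate together (r = -0.074, -0.004 and -0.116). Deviations from a mean of 3 arrays cannot tell whether samples were paired, and the labels only number them. Leaving out each array gave 0 to 2 members higher and 3 to 9 lower. Of all genes, 5.4% to 10.9% were then called higher and 4.13% to 9.6% lower. Of the uncalled members, MSH3 changed sign without some arrays (-0.06 to 0.14), RAD51D passed with the mean of its probes, MRE11 without PTTG1-/- replicate 3 and CHEK2 without PTTG1+/+ replicate 3. The causes were not tested. With 3 arrays a line, differences of this size lay on both sides of the threshold: ERCC1 (0.28) was called and CHEK2 (-0.28) was not with all 6 arrays.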
